A study of Mus musculus with 12 samples.

Results

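The gelsolin family is the set of actin-severing and actin-capping proteins built from repeats of the gelsolin domain. Its 7 members examined here were Scin, Avil, Gsn, Capg, Flii, Svil and Vil1, out of 18193 genes that had a probe set of their own. Together they had 16 probe sets of the 45037 tested: 6 for Gsn, 3 for Flii, 2 each for Capg and Svil, and 1 each for Scin, Avil and Vil1, none of which named a second gene. The members were chosen by gene name, and the probe set shown for a gene was selected on its mean log2 signal over the 12 arrays, the highest of that gene. The family was picked with results of these arrays known, so its fold changes describe these genes and are no independent evidence about the family.

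Gene expression was profiled in mouse cytotoxic T lymphocytes (CTL), with 3 arrays in each of 4 groups. The cells were made from spleen by 48 hr of activation with 0.5 µg/ml CD3 antibody in IL-2 at 20 ng/ml, followed by 5 days in IL-2. The first experiment set Pdpk1-null CTL (PDK1 null in the plots), from mice with loxP-flanked alleles of Pdpk1 (Pdpk1 fl/fl), against Cre control CTL with wild-type Pdpk1 alleles. Pdpk1 encodes the kinase PDK1, which phosphorylates and activates Akt and other kinases of its class. Both groups carried TamoxCre, a tamoxifen-dependent Cre recombinase expressed from the ROSA26 locus of C57BL/6 mice, and both received 0.6 µM 4-hydroxytamoxifen for the last 72 hr. The recombinase is therefore not restricted to T cells, and it was active in the controls as well. In the second experiment CTL of 3 wild-type C57BL/6 mice were divided, and 1 portion of each culture received 1 µM AktI-1/2 (AktI), an allosteric Akt inhibitor, for the last 48 hr while the other stayed untreated. The comparisons ask which transcripts depend on PDK1 and which on Akt in CTL held in IL-2.

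Array medians lay between 4.60 and 4.62 (log2 signal) in the Pdpk1 experiment and between 5.10 and 5.14 in the Akt experiment, so signals were set side by side only within an experiment. Arrays of 1 group correlated with each other at r of 0.996 to 0.998 across probe sets. Background was taken as the 95th percentile of 80 olfactory and vomeronasal receptor probe sets, at a log2 signal of 4.45 in the Pdpk1 experiment and 4.99 in the Akt experiment. The Pdpk1 probe sets could not check the genotype: the brighter one read 8.95 to 9.09 in Pdpk1-null CTL and 8.96 to 9.03 in Cre control CTL. By immunoblot the study reports loss of PDK1 and of Akt phosphorylation in CTL treated in this way. All 9 measured markers of T cells and CTL were above background in both experiments. These are bulk cultures, in which fewer cells of a type and less RNA per cell cannot be told apart.

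Gelsolin-domain proteins bind actin filaments in the presence of calcium, cut them and stay on the fast-growing (barbed) end as a cap, which blocks growth there, and phosphoinositides release them. Gelsolin itself (Gsn) and adseverin, also called scinderin (Scin), are soluble severing proteins. Advillin (Avil) and villin (Vil1) carry an added headpiece that binds filaments, supervillin (Svil) ends in a related headpiece and binds filaments through other regions, CapG (Capg) caps without cutting, and flightless I (Flii) joins gelsolin repeats to a leucine-rich repeat region and also acts in transcription. In cytotoxic T cells cortical actin is cleared at the contact with a target cell while lytic granules are released.

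After Pdpk1 deletion Avil and Gsn fell and no member rose, so 2 of 7 members were called lower. Among all genes 0.357% were called lower in that comparison, at an adjusted p under 0.05 and a change of at least 1.5-fold (limma, Benjamini-Hochberg over all tested probe sets). With AktI Scin and Gsn fell and no member rose, again 2 of 7, where 1.03% of all genes were called lower. Gsn was the member called lower in both comparisons, as were 0.137% of all genes. The median log2 fold change over the 7 members was -0.00 after deletion and -0.10 with AktI, against -0.01 and -0.02 over all genes.

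**Figure D1:**
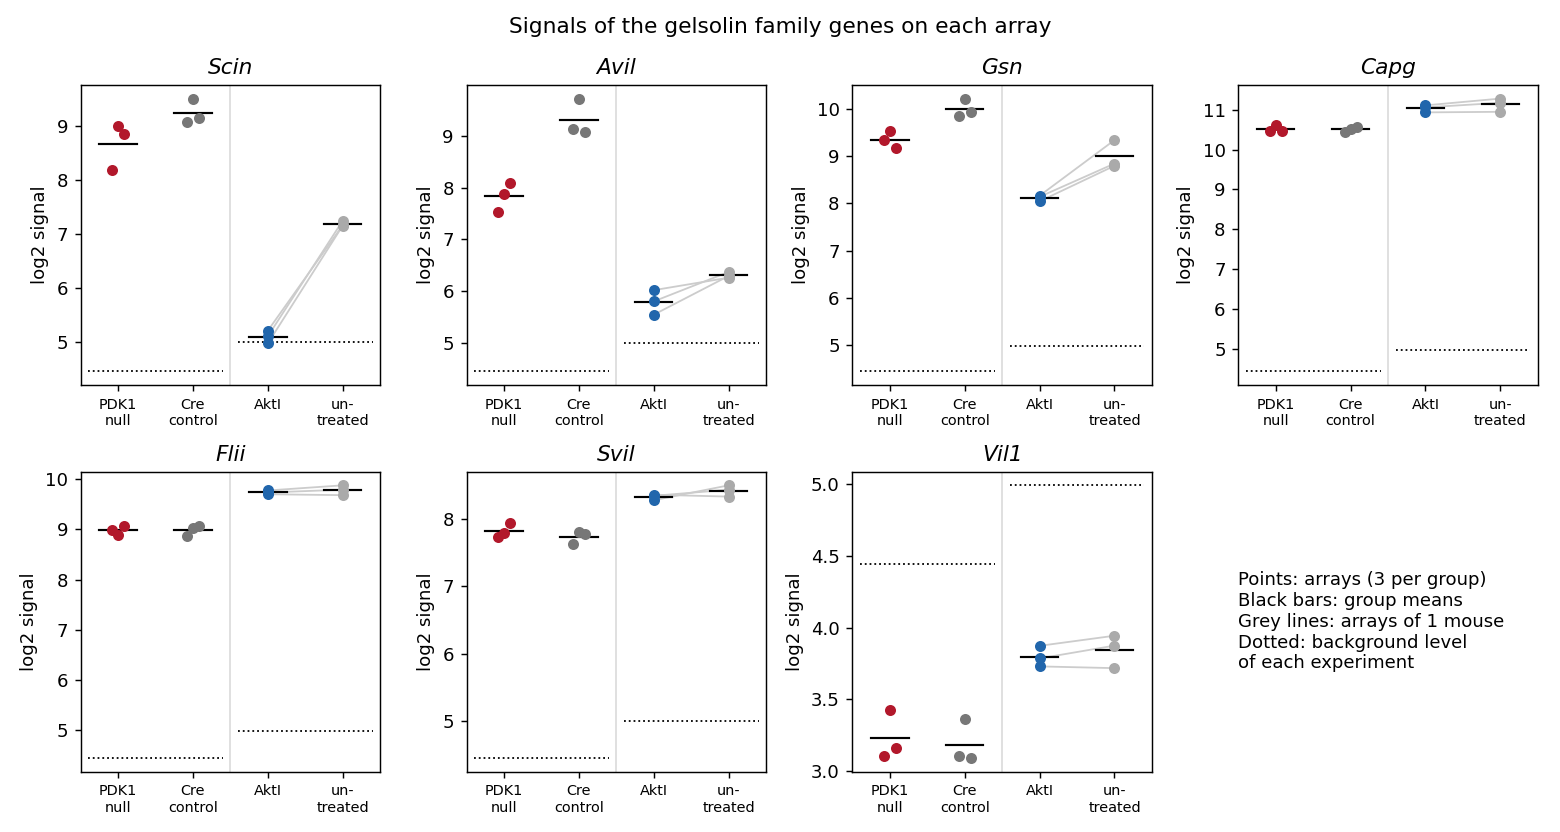
Log2 signal (vertical axis) of the representative probe set of each of the 7 genes on every array, by group from left to right: Pdpk1-null, Cre control, AktI and untreated CTL (3 arrays each). Points are arrays, black bars are group means, grey lines join the cultures of 1 mouse and the dotted line is the background level. AktI arrays of Scin sit at 4.97 to 5.20, next to background, against 7.15 to 7.24 in untreated CTL.

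Scin, the adseverin gene, carried the largest change of the family. In AktI-treated CTL its log2 signal was 5.20, 4.97 and 5.10, against 7.16, 7.15 and 7.24 in untreated CTL of the same 3 mice. Every treated array was thus far below every untreated one, and the treated mean, 5.09 ± 0.118 (SD, n = 3), lay just above the background level of 4.99, against 7.19 ± 0.0513 in untreated CTL. The log2 fold change was -2.10 (SE 0.0782, 95% interval -2.28 to -1.92), a 4.28-fold lower signal, with an adjusted p of 1.69e-05 in limma. This fit, like the other main fits of the Akt experiment, did not use the pairing of cultures by mouse. With the replicate number as a block the adjusted p was 0.000236 in limma. Scin held rank 7 from the lowest log2 fold change of all 18193 genes. The log2 difference within a mouse was -1.96 in mouse 1, -2.19 in mouse 2 and -2.15 in mouse 3. The treated array of mouse 2 was below background and those of the other mice were just above it, so a lower transcript level, or a difference between the mice, could not be read.

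After Pdpk1 deletion the Scin signal was 8.18, 9.00 and 8.85 in Pdpk1-null CTL, against 9.07, 9.51 and 9.15 in Cre control CTL. The groups did not overlap, with every Pdpk1-null array below the lowest control array, a pattern that 13.7% of all genes showed in this direction. The first Pdpk1-null array was the lowest of the 6. Group means were 8.68 ± 0.435 in Pdpk1-null CTL and 9.25 ± 0.234 in Cre control CTL (SD, n = 3 each). The log2 fold change of -0.57 (SE 0.206, 95% interval -1.04 to -0.10) corresponded to 1.48-fold and did not pass, with an adjusted p of 0.237 in limma.

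The size of the Scin change differed between the experiments. Set against each other in 1 model of all 12 arrays, the effect of Pdpk1 deletion minus the effect of AktI was 1.53 on the log2 scale (SE 0.243, 95% interval 1.01 to 2.05), with an adjusted p of 0.0141 in limma. Scin was the 1 member whose difference passed, where 0.522% of all genes passed in either direction. The difference passed in all 20 alternative settings, with adjusted p up to 0.0496 when single arrays were left out.

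Avil, which encodes advillin, a severing and bundling protein best known from sensory neurons, fell further after deletion than with AktI, a contrast that did not pass its own test. Its log2 signal was 7.54, 7.88 and 8.09 in Pdpk1-null CTL, against 9.15, 9.73 and 9.08 in Cre control CTL. The highest Pdpk1-null array thus lay well below the lowest control array. Means were 7.84 ± 0.276 in Pdpk1-null CTL and 9.32 ± 0.357 in Cre control CTL (SD, n = 3 each). The log2 fold change was -1.48 (SE 0.190, 95% interval -1.92 to -1.05), a 2.79-fold lower signal, with an adjusted p of 0.0107 in limma. This change had rank 7 from the lowest among all genes, and it passed without any single array.

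In the Akt experiment Avil read 6.02, 5.54 and 5.80 in AktI-treated CTL, against 6.26, 6.29 and 6.37 in untreated CTL. The treated arrays were all below the untreated ones, which held for 14.8% of all genes in this direction. The means were 5.79 ± 0.238 in AktI-treated CTL and 6.31 ± 0.0570 in untreated CTL (SD, n = 3 each), a log2 fold change of -0.52 (SE 0.113, 95% interval -0.78 to -0.26). The adjusted p was 0.0355 in limma, but the change of 1.44-fold stayed under the 1.5-fold minimum and was not called. Between mice it ranged from 1.18-fold in mouse 1 to 1.68-fold in mouse 2. The array of AktI-treated CTL of mouse 1 decided the call: without it the log2 fold change was -0.64 (adjusted p 0.0168) and Avil passed.

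The effects of deletion and of AktI on Avil differed by -0.96 (SE 0.244, 95% interval -1.49 to -0.43), and the adjusted p of 0.139 in limma did not pass. Avil thus passed after deletion and not with AktI, but the difference between the effects was itself tested and did not pass.

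The start regions of these genes are shown because Scin and Avil had the largest changes, in different experiments. The sequences are the 250 bases before the RefSeq start site (GRCm38.p6), read 5′ to 3′ on the strand of the gene, with matches to any searched motif in capitals. Scin lies on the minus strand, chr12:40134229-40134478, and Avil on the plus strand, chr10:127000459-127000708.
Scin: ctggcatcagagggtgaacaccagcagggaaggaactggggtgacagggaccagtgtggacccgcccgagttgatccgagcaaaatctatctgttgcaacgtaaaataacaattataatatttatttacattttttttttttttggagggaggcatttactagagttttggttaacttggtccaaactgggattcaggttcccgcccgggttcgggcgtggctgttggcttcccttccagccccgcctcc
Avil: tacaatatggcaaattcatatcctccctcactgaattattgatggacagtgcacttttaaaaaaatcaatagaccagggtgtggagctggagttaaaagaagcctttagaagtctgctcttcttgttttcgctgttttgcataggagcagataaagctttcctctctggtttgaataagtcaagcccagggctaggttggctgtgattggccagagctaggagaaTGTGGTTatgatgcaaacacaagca
The motifs were those of FOXO (TGTTTAC), STAT5 (TTCNNNGAA), ETS (CCGGAAG), RUNX (TGTGGTT), KLF (CCACCC) and the SRF CArG box, sought on both strands of the window that runs to 50 bases after the start. The Scin window held no match to any of them, and the Avil window held 1, the RUNX letters at positions -25 to -19 from the start. These RUNX letters occurred in 5.27% of 32851 promoter windows of the same length, so 1 match is a description only. The first of 3 Gsn starts had the KLF letters, present in 31.5% of all windows, at 9 to 14 bases after the start, and the other 2 Gsn windows held none of the motifs. No FOXO match lay in any of the 8 windows of the 6 members searched, where 3.65% of all windows had one. That says only that these letters are not in these windows.

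Gsn, the gene of gelsolin itself, moved in both experiments. Its representative probe set read 9.34, 9.52 and 9.17 in Pdpk1-null CTL, against 9.85, 10.2 and 9.94 in Cre control CTL. The groups were apart by less than in Avil but did not overlap, with means of 9.35 ± 0.173 in Pdpk1-null CTL and 10.0 ± 0.191 in Cre control CTL (SD, n = 3 each). The log2 fold change was -0.66 (SE 0.120, 95% interval -0.93 to -0.38), or 1.58-fold lower, with an adjusted p of 0.0366 in limma. This call rested on 5 of the 6 arrays: without Cre control array 1, 2 or 3 the adjusted p was 0.0661, 0.112 and 0.115, and without Pdpk1-null array 1 or 3 it was 0.110 and 0.114.

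With AktI the same Gsn probe set read 8.16, 8.04 and 8.14 in AktI-treated CTL, against 9.34, 8.79 and 8.84 in untreated CTL. The treated arrays lay close together, while the untreated culture of mouse 1 was the highest of its group. Means were 8.11 ± 0.0629 in AktI-treated CTL and 8.99 ± 0.301 in untreated CTL (SD, n = 3 each). The log2 fold change was -0.88 (SE 0.135, 95% interval -1.19 to -0.57), or 1.84-fold lower, with an adjusted p of 0.00802 in limma, and it passed without any single array. Per mouse the log2 difference was -1.18 in mouse 1, -0.75 in mouse 2 and -0.70 in mouse 3. The effects of deletion and AktI on Gsn differed by 0.22 (SE 0.196, 95% interval -0.20 to 0.65, adjusted p 0.768 in limma).

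All 4 bright Gsn probe sets fell in both experiments. Besides the representative, the other 3 had log2 fold changes of -0.68, -0.59 and -0.77 after deletion and of -0.95, -0.83 and -0.95 with AktI, and each passed in both comparisons. Among all probe sets 0.282% were called lower after deletion and 0.739% with AktI. Over the 12 arrays, with the mean of each experiment subtracted, these 3 followed the representative at r of 0.990, 0.976 and 0.980. They read transcripts of 1 gene on the same arrays, so they are not separate evidence. The remaining 2 Gsn probe sets lay below background in every group. One of them had log2 fold changes of -0.43 and -0.49, under the fold minimum, and the other of 0.01 and 0.02.

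**Figure D2:**
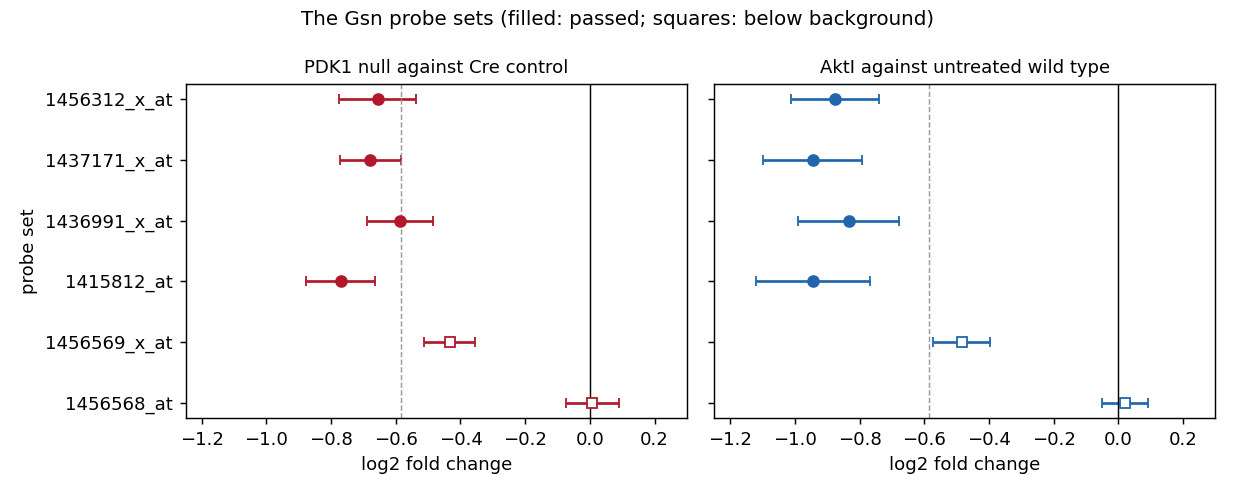
Log2 fold change of each of the 6 Gsn probe sets, after Pdpk1 deletion (Pdpk1-null against Cre control) and with AktI (AktI-treated against untreated). Bars are the standard error from limma, squares mark the probe sets below background and the dashed line is the 1.5-fold minimum. The 4 bright probe sets lie between -0.59 and -0.77 after deletion and between -0.83 and -0.95 with AktI.

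Capg, Flii and Svil were clearly expressed and none was called in either comparison. Capg, the brightest member, read 10.47, 10.62 and 10.47 in Pdpk1-null CTL, against 10.45, 10.51 and 10.57 in Cre control CTL, and the groups overlapped. It read 11.11, 10.93 and 11.06 in AktI-treated CTL, against 11.28, 10.94 and 11.17 in untreated CTL, which overlapped too. The log2 fold change was 0.01 after deletion (95% interval -0.16 to 0.18) and -0.10 with AktI (95% interval -0.32 to 0.12), so a change of 1.5-fold lies outside both intervals.

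Flii had log2 fold changes of -0.00 after deletion (95% interval -0.19 to 0.19) and -0.05 with AktI (95% interval -0.21 to 0.12). Its arrays lay between 8.89 and 9.06 in Pdpk1-null CTL, against 8.86 to 9.06 in Cre control CTL. In the Akt experiment they lay between 9.70 and 9.77 in AktI-treated CTL, against 9.68 to 9.88 in untreated CTL, and the groups overlapped in both experiments. A second Flii probe set gave 0.08 and -0.02, and the third was below background.

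Svil, a large membrane-associated member, had log2 fold changes of 0.08 after deletion (95% interval -0.11 to 0.27) and -0.10 with AktI (95% interval -0.26 to 0.06). Its arrays lay between 7.73 and 7.93 in Pdpk1-null CTL, against 7.63 to 7.80 in Cre control CTL. They lay between 8.28 and 8.36 in AktI-treated CTL, against 8.33 to 8.50 in untreated CTL. The groups overlapped in both experiments, and the second Svil probe set gave 0.07 and -0.03.

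Vil1, the villin of intestinal microvilli, was below background on every array. It read 3.10 to 3.42 in Pdpk1-null CTL, against 3.09 to 3.36 in Cre control CTL, and 3.73 to 3.87 in AktI-treated CTL, against 3.72 to 3.94 in untreated CTL. Its log2 fold changes of 0.05 and -0.05 are differences within background. The differences between the effects of deletion and AktI ranged from 0.05 to 0.18 over Capg, Flii, Svil and Vil1, with adjusted p from 0.632 to 0.938 in limma.

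**Figure D3:**
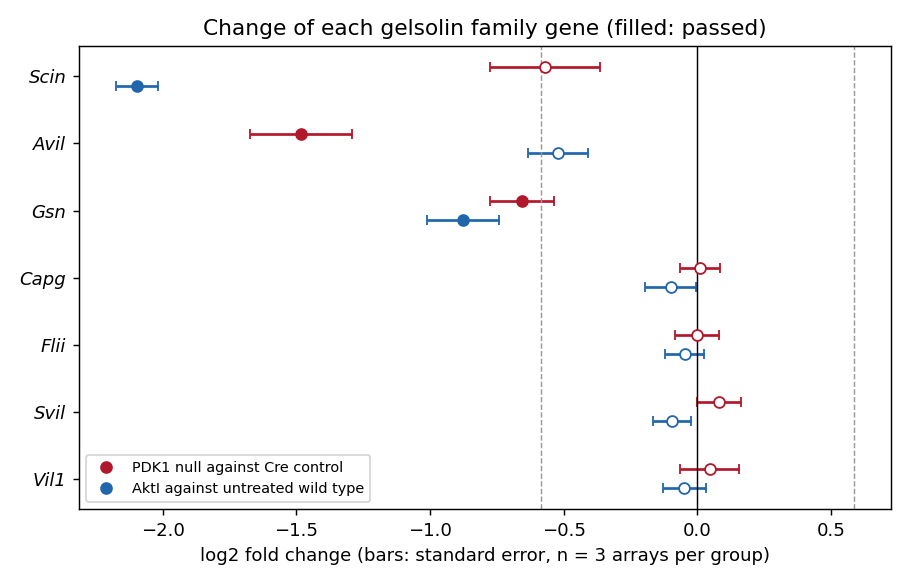
Log2 fold change (horizontal axis) of each of the 7 genes after Pdpk1 deletion (Pdpk1-null against Cre control) and with AktI (AktI-treated against untreated), with the standard error from limma as bars (3 arrays per group). Filled points passed at an adjusted p under 0.05 and 1.5-fold, and dashed lines mark 1.5-fold. Avil (-1.48) and Gsn (-0.66) passed after deletion, Scin (-2.10) and Gsn (-0.88) with AktI.

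Within an array each member can be placed among all tested probe sets, as the percent of probe sets below it. Capg stood highest, between percentiles 96.1 and 97.5 in all 4 groups. Flii lay at 91.0 to 92.5 and Svil at 81.7 to 85.3, while Vil1 stayed at 19.8 to 30.2. In the Pdpk1 experiment Gsn stood between Capg and Flii, at 93.1 to 94.5 in Pdpk1-null CTL and 95.7 to 96.7 in Cre control CTL. Percentiles compare probe sets of different sequence, so they order signals and not transcript numbers.

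The members that fell changed place between groups. Scin had a median percentile of 91.4 in Pdpk1-null CTL and 92.8 in Cre control CTL. It had 50.0 in AktI-treated CTL and 72.4 in untreated CTL. Avil had 84.8 in Pdpk1-null CTL and 92.9 in Cre control CTL, and 59.2 in AktI-treated CTL and 64.7 in untreated CTL. For Scin the Pdpk1-null range (87.1 to 92.1) and the Cre control range (92.5 to 94.4) were close neighbours that did not overlap. Gsn had 93.8 in Pdpk1-null CTL and 95.9 in Cre control CTL, and 80.4 in AktI-treated CTL and 86.2 in untreated CTL. Scin, Avil and Gsn thus stood lower in the untreated wild-type cultures than in the Cre control cultures. Genotype, 4-hydroxytamoxifen, experiment and the separate normalization cannot be told apart there, and no test was made.

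**Figure D4:**
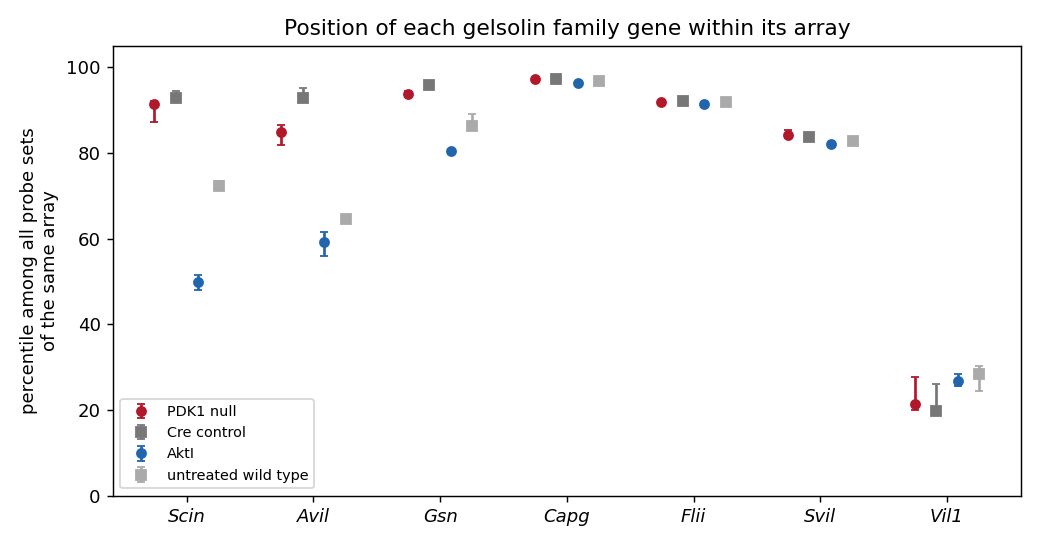
Percentile of each of the 7 genes among all tested probe sets of an array (vertical axis), by group: Pdpk1-null, Cre control, AktI and untreated CTL. Markers are the median of 3 arrays and bars run from the lowest to the highest array. Scin has a median of 50.0 in AktI-treated against 72.4 in untreated CTL, and of 91.4 in Pdpk1-null against 92.8 in Cre control CTL. Capg stays at 96.1 to 97.5.

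The members that fell differed in which genes followed them. Likeness was measured as Pearson's r of log2 signals over the 12 arrays after subtracting the mean of each experiment, among 662 genes whose centred signals had an SD of at least 0.3. It is dominated by the 4 group means, so genes picked this way tend to pass where the member passed, and their calls are a description only. It is given without a test, and the arrays are the same for every gene. The 5 genes most like Scin were Prf1, the pore-forming protein of lytic granules (r 0.989), Fuca2, a fucosidase (0.988), Ctsd, the lysosomal protease cathepsin D (0.978), Gpd2, a mitochondrial glycerol phosphate dehydrogenase (0.974), and Il12rb1, a chain of the IL-12 receptor (0.973). Prf1 had log2 fold changes of -0.67 after deletion (adjusted p 0.140) and -2.20 with AktI (adjusted p 0.000164). The other 4 all passed with AktI, at -0.75 to -1.10, and none of the 5 passed after deletion. All 5 were lower there, from -0.24 for Fuca2 to -0.67 for Prf1. Il12rb1 (-0.42, adjusted p 0.0365 in limma) missed only the fold minimum. For perforin the study reports similar results after Pdpk1 deletion as with AktI, by real-time PCR and immunoblot.

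The 5 genes most like Avil were the zinc finger genes Zfp52 (r 0.969) and Zfp948 (0.948), Hmgcs1, an enzyme of sterol synthesis (0.946), Slc16a10, a transporter of aromatic amino acids (0.932), and Chn2, a GTPase-activating protein for Rac (0.918). All of them passed after deletion, with log2 fold changes of -0.88 for Hmgcs1 to -2.16 for Zfp948. The compared groups came from mice with different Pdpk1 alleles, so loss of PDK1 and other differences between those mice cannot be told apart. With AktI Slc16a10 (-0.70) and Chn2 (-0.59) passed, and Zfp52 (-0.44), Zfp948 (-0.38) and Hmgcs1 (-0.11) did not.

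The 5 genes most like Gsn were Irf8, a transcription factor (r 0.970), Acpp, an acid phosphatase (0.969), Trim16 (0.969), Slc16a6, of the monocarboxylate transporter family (0.963), and Acvrl1, a receptor for TGF-beta family ligands (0.958). All 5 passed with AktI, from -0.74 for Slc16a6 to -1.79 for Acvrl1, and Irf8 (-0.91) and Acpp (-0.70) also passed after deletion. By the same measure Scin and Gsn followed each other at 0.856, Avil and Gsn at 0.749, and Scin and Avil at 0.587.

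The rest of the actin machinery was counted in 13 lists that held 110 other measured genes: actins, monomer binders, barbed and pointed end cappers, the cofilin group, the Arp2/3 complex and its activators, formins, bundling proteins, tropomyosins, membrane linkers of the ezrin type, kinases that make phosphatidylinositol bisphosphate, and other genes with a villin headpiece. None of the 110 was called lower, where 0.357% of all genes were after deletion and 1.03% with AktI. At such low shares the absence of a call among 110 genes says little. Called higher were 2 in each comparison, where 1.01% of all genes were after deletion and 1.51% with AktI. The median log2 fold change of the 110 was -0.01 after deletion and -0.03 with AktI. The range was -0.37 to 0.74 after deletion and -0.34 to 0.91 with AktI. The 4 other villin headpiece genes, Vill, Dmtn, Ablim1 and Ablim3, and the 11 barbed end cappers outside the family were not called. Of those cappers Twf2 (0.57, adjusted p 0.00502), Add3 (0.57, adjusted p 0.0146), Add1 (0.46, adjusted p 0.0127) and Capza2 (-0.27, adjusted p 0.0474) passed the adjusted p with AktI in limma and missed the fold minimum.

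The 2 called higher were the same in both comparisons, Ssh2 and Inf2. Ssh2 encodes slingshot 2, a phosphatase that activates cofilin, another filament-severing protein. Its log2 signal was 8.50 ± 0.224 in Pdpk1-null CTL and 7.76 ± 0.133 in Cre control CTL, and 9.15 ± 0.0386 in AktI-treated CTL and 8.24 ± 0.0339 in untreated CTL (SD, n = 3 each). The log2 fold changes were 0.74 (adjusted p 0.0240) and 0.91 (adjusted p 0.000167) in limma.

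Inf2 encodes a formin that both assembles and severs filaments. Its log2 signal was 6.00 ± 0.113 in Pdpk1-null CTL and 5.38 ± 0.0762 in Cre control CTL, and 7.28 ± 0.148 in AktI-treated CTL and 6.57 ± 0.156 in untreated CTL (SD, n = 3 each). The log2 fold changes were 0.62 (adjusted p 0.0121) and 0.71 (adjusted p 0.00612) in limma. With the mean of all its probe sets in place of the brightest, Inf2 was at 0.35 and 0.47 and was not called. After deletion the calls of both genes were lost without some single arrays, with adjusted p up to 0.105 for Ssh2 and 0.0589 for Inf2.

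Gelsolin family genes are also expressed by other cells of the spleen, so markers of those cells were read beside the falls of Scin, Avil and Gsn. The methods of the study describe magnetic sorting of CD8+ T cells in general. For the Pdpk1-null and the wild-type cultures the study, like the labels, names splenocytes as the cells that were activated. Of 9 macrophage and monocyte markers 4 were above background in the Akt experiment, and Cd68 (log2 fold change -1.30, adjusted p 0.00563) and Mpeg1 (-0.72, adjusted p 0.00355) fell with AktI in limma, beside 1.03% of all genes. The other 2 above background, Csf1r (-0.05, adjusted p 0.812) and Fcgr1 (0.01, adjusted p 0.948), were not called. The summed linear signal of that list was 309 to 322 in AktI-treated CTL and 409 to 493 in untreated CTL, with Adgre1, Cd14, Lyz1, Lyz2 and Mrc1 below background. Of 9 mast cell and basophil markers 5 were above background. Mcpt8 fell with AktI (-1.09, adjusted p 0.0465), a call lost without 5 of the 6 arrays (adjusted p up to 0.139), and the sum was 239 to 268 in AktI-treated CTL and 270 to 327 in untreated CTL, with Cpa3, Mcpt4, Fcer1a and Ms4a2 below background. The other 4 were not called, at 0.31 for Kit, 0.06 for Hdc, -0.05 for Tpsb2 and -0.17 for Tpsab1. The macrophage sum contains Cd68 and Mpeg1 and the mast cell sum contains Mcpt8, so the lower sums are not separate from those calls. The summed signal of the T cell list was lower with AktI as well, with Prf1 called lower. It was 57255 to 61518 in AktI-treated CTL and 68289 to 71582 in untreated CTL. Of its other granule genes, Gzma (-0.43, adjusted p 0.0231) and Gzmb (-0.34, adjusted p 0.0192) missed the fold minimum. Among the rest, Cd8b1 was at 0.50 (adjusted p 0.00350), Cd2 at 0.21, Cd8a at 0.07, Cd3d and Cd3g at 0.00 and Cd3e at -0.09. The summed signal of the NK cell list was 11381 to 11844 in AktI-treated CTL and 14350 to 15086 in untreated CTL, with no gene called. Ncr1 and Klra8 were below background, and the sum was mostly that of Nkg7 and Eomes. It does not tell NK cells from CTL, so no number of NK cells can be read from it. Nkg7 and Eomes were both lower with AktI but missed the fold minimum (-0.32, adjusted p 0.0191, and -0.44, adjusted p 0.00883, in limma). Klre1 was at 0.41 (adjusted p 0.283). The part of other cells of the spleen in the falls of Scin and Gsn with AktI was not tested.

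In the Pdpk1 experiment none of the macrophage or mast cell markers was called. The macrophage sum was 301 to 362 in Pdpk1-null CTL and 302 to 311 in Cre control CTL, and the mast cell sum was 370 to 504 in Pdpk1-null CTL and 350 to 522 in Cre control CTL. Of the T cell list Cd2 rose after deletion (log2 fold change 0.67, adjusted p 0.0151), and Klre1 of the NK cell list rose as well (0.80, adjusted p 0.0462, in limma). Both calls were lost without some single arrays, with adjusted p up to 0.0582 for Cd2 and 0.162 for Klre1. No marker of dendritic cells, megakaryocytes, B cells, fibroblasts or epithelium was called in either comparison. Platelets are rich in gelsolin, and the summed signal of the megakaryocyte list was 245 to 276 in Pdpk1-null CTL and 237 to 266 in Cre control CTL, and 388 to 393 in AktI-treated CTL and 382 to 422 in untreated CTL, with Pf4, Ppbp and Gp5 below background.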

How the data were processed

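RNA of 12 CTL cultures was hybridised to Affymetrix mouse genome arrays by the study. The authors deposited log2 signals per probe set, calculated with the robust multichip average of Affymetrix Expression Console 1.1, and these were analysed unchanged. Medians were alike within an experiment but not across experiments, so separate normalization was assumed. Robust multichip averaging puts the arrays of an experiment on 1 distribution and compresses changes near background.

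Of 45101 probe sets, 64 were controls and 45037 were tested: 34945 name 1 gene, 932 several and 9160 none in the platform annotation. Each comparison was fitted in R 4.3.3 with limma 3.58.1 (lmFit, eBayes), using only the 6 arrays of its experiment and no covariate. The Benjamini-Hochberg adjustment covered all 45037 probe sets. Calls needed a change of 1.5-fold or more and an adjusted p below 0.05. Effects were compared through the interaction in a model of 4 group means on 12 arrays. The SAM procedure of the study rests on relabelled arrays and was not run. An exact permutation test of 3 against 3 arrays cannot give a p below 0.1, and limma supplied all p-values. With 3 arrays a group, their number limits the precision. The study states that the Pdpk1 experiment used 3 mice per genotype, matched for age and sex. The p-values there measure the spread between cultures of these mice.

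The genes named were the 7 members, at most 4 called genes of each actin list, and the 5 genes most like each member that passed. Marker genes, and barbed end cappers that missed the fold minimum alone, were added after their values were seen. The members and all lists were chosen with earlier results of these data known. Alternatives were trend and robust variance moderation, quantile normalization, median scaling of arrays, removal of dim probe sets, dropping the fold minimum or raising it to 2-fold, averaging the probe sets of a gene or taking any of them, a single model of 12 arrays, the replicate number as a block, and leaving out each array. In the Akt experiment the labels name the mouse of each culture, and cultures of 1 mouse share a replicate number; such cultures correlated in their deviations at 0.0343 to 0.170, against -0.102 to 0.0383 for other pairs. The fit was tested on simulated data. Promoter sequences are from RefSeq (GRCm38.p6), with 8 windows for 6 members.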

Additional observations from a re-analysis of the deposited data

Results flagged for a closer look

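The effect of Pdpk1 deletion on Scin and the effect of AktI on it differed by 1.53 on the log2 scale (adjusted p 0.0141, limma interaction over 12 arrays). With AktI the fall of Scin was called (log2 fold change -2.10). After deletion it was not (-0.57, adjusted p 0.237 in limma), although all 3 Pdpk1-null arrays lay below all 3 Cre control arrays, as they did for 13.7% of all genes. The comparisons come from separate experiments with different exposure times, 72 hr of 4-hydroxytamoxifen and 48 hr of AktI, and the part of these differences was not tested.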

How the results depend on the processing

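With a 2-fold minimum 1 member passed after Pdpk1 deletion (Avil) and 1 with AktI (Scin). When the probe sets of a gene were averaged, 1 member passed after deletion, since Gsn was then at -0.52, under 1.5-fold. Leaving out single arrays gave 1 to 2 members after deletion, 2 to 3 with AktI and 1 for the difference of the effects. In that last comparison Scin alone passed under every alternative run. Avil after deletion kept its call in all 15 alternatives (log2 fold change -1.61 to -1.28 without single arrays) and so did Scin with AktI (-2.15 to -2.04), while Gsn with AktI lost it only under the 2-fold minimum. Avil with AktI passed with no fold minimum. With the replicate number as a block the counts of members stayed at 2, 2 and 1, with adjusted p of 0.0221 and 0.00888 for Gsn and 0.000236 for Scin with AktI, and the block changed no call of a member. In the Pdpk1 experiment the numbers are only names (correlations of -0.011 to 0.0496 for the same number), and there the block brought Prf1 to an adjusted p of 0.0431 and took Acpp to 0.0635 and Klre1 to 0.0786.

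Values near 0 changed sign. Flii after deletion was 0.043 when its probe sets were averaged. Without single arrays, values after deletion ran from -0.039 to 0.041 for Capg, -0.061 to 0.046 for Flii, -0.051 to 0.13 for Vil1, -0.018 to 0.073 for Mpeg1 and -0.066 to 0.46 for Mcpt8. Values with AktI ran from -0.097 to 0.000497 for Flii and from -0.11 to 1.75e-05 for Vil1, and differences of the effects from -0.014 to 0.097 for Flii and from -0.00150 to 0.18 for Vil1. The cause was not tested. Vil1 has no value with dim probe sets left out. Signals near background bound what can be read of Vil1 and of Scin with AktI.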
